A study of Rattus norvegicus with 20 samples.

Results

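Crem and 7 other genes of cyclic AMP (cAMP) signalling were followed in rat blood before and after acetaminophen (APAP). The genes were Crem, Creb1, Atf1, Pde4a, Pde4b, Pde4d, Prkar1a and Prkaca, and all 8 were among the 14217 genes that the array's annotation names alone on a probe set. They were measured by 21 probe sets, every one whose annotation gives a single symbol that is one of these genes, out of 31042 that were not controls. A probe set is a group of short oligonucleotides that gives 1 signal. Crem was chosen by its measured postdose change, a lower signal after dosing in both sub-groups of rats, so that this change is described here with no test. The other genes were chosen as parts of the same pathway, with results of these arrays already known.

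Hormones and mediators such as adrenaline, prostaglandin E2 and adenosine act on receptors coupled to the G protein Gs, and adenylyl cyclase then makes cAMP. cAMP releases the catalytic subunits of protein kinase A (PKA) from its regulatory subunits, the kinase phosphorylates CREB, CREM and ATF1 at cAMP response elements (CREs) of DNA, and phosphodiesterases (PDEs) break cAMP down. In white blood cells the PDE4 family does much of this breakdown, and an internal promoter of Crem gives ICER, a short repressor form that cAMP itself induces.

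RNA from the blood of male Wistar rats was hybridised to 20 Affymetrix Rat Genome arrays, 5 for each of 4 groups. The groups were susceptible rats after (SA) and before (S) APAP and resistant rats after (RA) and before (R) APAP, where susceptible and resistant rats were those with the highest and the lowest serum alanine aminotransferase (ALT), a marker of liver injury, after the drug. APAP was given by mouth at 1200 mg/kg after a fast of 12 h, and postdose blood was taken 24 h later. Red cells were lysed before RNA was extracted. The methods place the postdose bleed at the inferior vena cava and the predose bleed, which a recovery period followed, at the retro-orbital plexus, whereas the sample labels name the retro-orbital plexus for both. No array held blood of vehicle-treated rats. Bleeding site, fasting and day therefore cannot be told apart from APAP in any postdose change. By the methods, predose and postdose blood came from the same 5 susceptible and 5 resistant rats. The labels do not say which predose and postdose arrays are of 1 rat. Arrays were therefore treated as separate samples with the pairing left out, and p-values measure the spread between arrays. In bulk blood, fewer cells of a type and less RNA per cell cannot be told apart either.

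Signals are given as log2 after each array was scaled to a median signal of 1000, and a change is postdose minus predose, so that a difference of 1 is a factor of 2. A call is an adjusted p under 0.05 from limma, adjusted over all 30747 probe sets tested. All 21 members passed the filter on low signal. Probes differ in how well they bind, so that the signal of one probe set is not a measure of more or less RNA than that of another. No array stood apart from the rest, with a median correlation of 0.925 to 0.934 with the other 19 arrays. Markers of blood cells were detected, with summed scaled signals of 310552 to 440088 for 8 T cell genes and 509687 to 1223220 for 7 neutrophil genes. The sums of 5 liver genes were 974 to 23409.

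Crem lies at chr17:58932011-59001160 in the rat build GRCr8. RefSeq start sites on that build give the gene 3 windows, one near the gene's own start and a pair deep inside it, whose starts lie 52786 and 53479 bases downstream of the gene's start. The 250 bases before each start are printed here because they differ in CREs, the DNA element to which CREM and CREB bind. Capitals mark the full CRE, TGACGTCA, which reads the same on both strands, the CRE core, TGACG or CGTCA on its other strand, where it stands outside a full site, and a variant, TGATGTCA or TGACATCA on its other strand, that was searched after the sequences had been seen. All are on the + strand, at chr17:58933816-58934065, chr17:58984547-58984796 and chr17:58985240-58985489 in that order.
Crem window 1: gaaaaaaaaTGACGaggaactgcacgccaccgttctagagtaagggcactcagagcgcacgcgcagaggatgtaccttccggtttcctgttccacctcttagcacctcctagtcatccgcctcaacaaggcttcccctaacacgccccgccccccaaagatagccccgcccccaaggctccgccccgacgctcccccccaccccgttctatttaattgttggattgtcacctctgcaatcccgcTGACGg
Crem window 2: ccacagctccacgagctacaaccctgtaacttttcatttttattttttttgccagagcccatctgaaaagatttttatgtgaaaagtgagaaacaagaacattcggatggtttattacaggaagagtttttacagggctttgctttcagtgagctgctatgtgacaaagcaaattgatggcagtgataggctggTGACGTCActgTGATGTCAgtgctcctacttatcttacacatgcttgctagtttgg
Crem window 3: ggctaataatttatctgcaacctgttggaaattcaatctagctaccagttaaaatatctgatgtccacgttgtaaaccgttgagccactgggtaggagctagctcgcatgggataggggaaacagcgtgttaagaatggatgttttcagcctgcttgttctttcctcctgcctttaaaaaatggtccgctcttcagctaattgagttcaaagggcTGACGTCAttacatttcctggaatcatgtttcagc

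Window 1 held CRE cores that began 241 and 6 bases before the start and no full one. Window 2 held 1 full CRE that began 56 bases before the start and 1 variant that began 45 bases before it. Window 3 held 1 full CRE that began 35 bases before the start and another 39 bases after it, in the 50 bases past the start that are not printed. Of 33469 RefSeq windows of the same length in the rat, 1.83% held a full CRE, 0.0418% held 2 or more, 4.34% held the variant, and 0.0657% held both the full CRE and the variant. The core was in 21.2%, full sites included. A match is a description and not a bound site, and the probe sets were not assigned to the transcripts of these starts here.

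Crem signal was lower after APAP on all 6 of its probe sets in both sub-groups. On each of them every postdose array lay below every predose array, within each sub-group and also over the 10 postdose and 10 predose arrays together. Over the 6 probe sets the log2 change was between -1.66 and -0.83 in susceptible rats (median -1.09) and between -2.70 and -1.30 in resistant rats (median -1.77). Among all 30747 probe sets tested, arrays that did not overlap and were lower after dosing made up 2.91% in susceptible rats, 3.53% in resistant rats and 0.865% for both together. These values chose the gene and are given as a description.

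The probe set 1369737_at had the largest Crem change. Its log2 signal was 12.33, 11.20, 11.91, 12.25 and 11.74 in SA, against 13.10, 13.78, 13.43, 13.95 and 13.45 in S. The highest SA array was below the lowest S array, and the mean was 3.15 times lower (log2 change -1.66 ± 0.26, SE). In resistant rats the signal was 11.12, 11.11, 11.72, 11.24 and 11.63 in RA, against 13.13, 14.04, 14.35, 14.26 and 14.56 in R. R replicate 1 was the lowest R array by a wide margin and still above every RA array. The mean was 6.50 times lower in RA than in R (log2 change -2.70 ± 0.26, SE).

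The probe set 1378925_at gave 13.83, 13.49, 13.78, 13.87 and 13.42 in SA, against 14.57, 15.20, 14.76, 15.34 and 14.52 in S. It gave 13.47, 13.45, 13.66, 13.28 and 13.57 in RA, against 14.44, 15.20, 15.55, 15.65 and 15.76 in R. R replicate 1 was again the lowest of its group. Means were 2.30 times lower in SA than in S and 3.57 times lower in RA than in R.

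The probe set 1369738_s_at, whose suffix marks probes that can match more than 1 transcript, gave 12.38, 12.24, 11.99, 12.25 and 12.29 in SA, against 13.06, 13.18, 13.31, 13.48 and 13.07 in S. In resistant rats it gave 12.05, 11.93, 11.98, 11.97 and 12.13 in RA, against 13.01, 13.35, 13.14, 13.49 and 13.94 in R. The RA arrays were the tightest of the 4 groups, with an SD of 0.080. The other 3 Crem probe sets ran the same way. 1387714_at averaged 10.94 ± 0.33 in SA and 11.78 ± 0.26 in S, and 10.68 ± 0.092 in RA and 11.99 ± 0.088 in R (SD, n = 5 each). 1393550_at averaged 10.51 ± 0.33 in SA and 11.78 ± 0.37 in S, and 10.35 ± 0.27 in RA and 12.30 ± 0.74 in R. 1396545_at averaged 10.34 ± 0.33 in SA and 11.20 ± 0.24 in S, and 10.08 ± 0.36 in RA and 11.79 ± 0.47 in R.

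**Figure D1:**
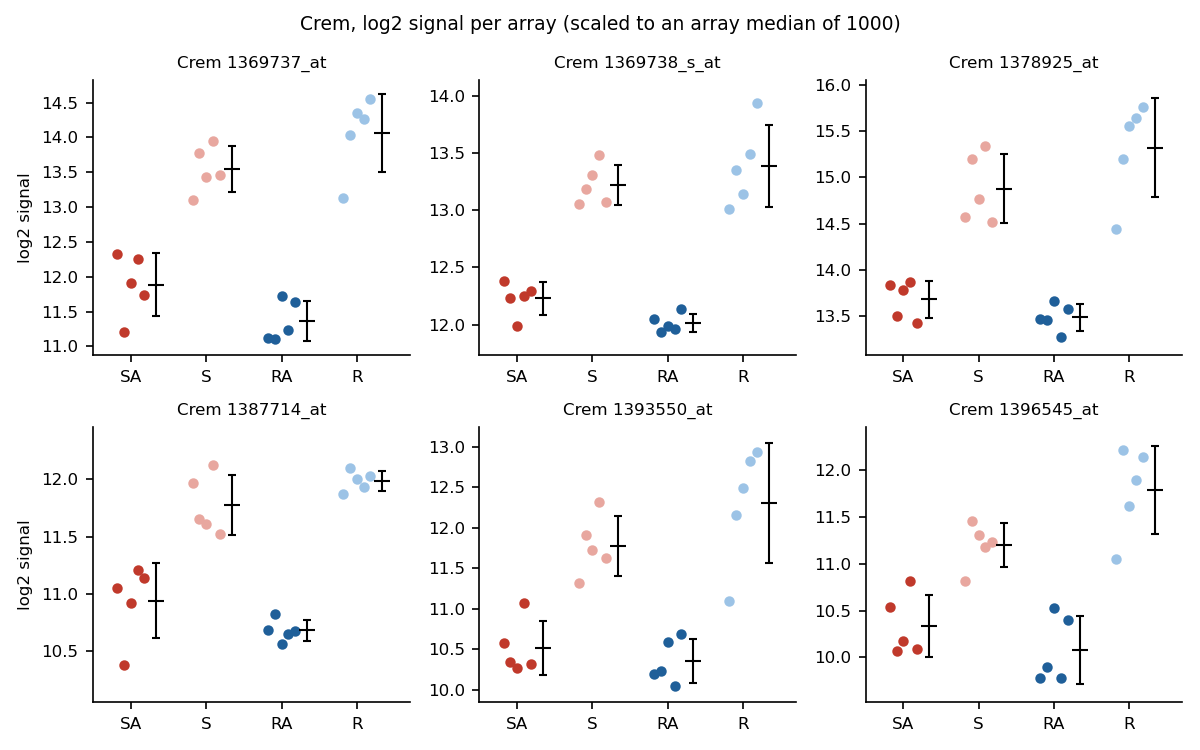
Log2 signal of the 6 Crem probe sets on each of the 20 arrays, by group (SA, S, RA, R), with a point per array and the group mean ± SD in black beside the points (n = 5). On every probe set the 10 postdose arrays (SA and RA) lie below the 10 predose arrays (S and R).

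The group means stood in the order R, S, SA, RA on all 6 probe sets, but the neighbours within each time did not differ by limma's test. After dosing, Crem was higher in SA than in RA by 0.17 to 0.52 on the log2 scale, with adjusted p of 0.571 to 0.912 and no unadjusted p under 0.05. Before dosing, Crem was lower in S than in R, with log2 differences of -0.59 to -0.17 and adjusted p of 0.9998, and 1 probe set, 1396545_at, had an unadjusted p under 0.05. The postdose change was smaller in susceptible than in resistant rats on all 6 probe sets, by 0.39 to 1.04. None of these differences in change was called (adjusted p 0.541 to 0.792), and 3 had an unadjusted p under 0.05. The 95% interval of the largest, 1369737_at, ran from 0.27 to 1.82 before any adjustment for the number of probe sets. The 6 probe sets measure 1 gene on the same arrays and are not independent.

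Of the 3 PDE4 genes among the members, Pde4b and Pde4d were called and Pde4a was not. Pde4d encodes a phosphodiesterase that hydrolyses cAMP and is anchored near its targets through several long and short forms, and it lies at chr2:41748337-43262567. Of its 5 RefSeq windows, 3 held neither the full CRE nor its core, and windows 3 and 4 held cores alone. These are printed for comparison with Crem windows 2 and 3, at chr2:42592499-42592748 and chr2:42767367-42767616, both on the + strand, with the cores in capitals as TGACG or CGTCA.
Pde4d window 3: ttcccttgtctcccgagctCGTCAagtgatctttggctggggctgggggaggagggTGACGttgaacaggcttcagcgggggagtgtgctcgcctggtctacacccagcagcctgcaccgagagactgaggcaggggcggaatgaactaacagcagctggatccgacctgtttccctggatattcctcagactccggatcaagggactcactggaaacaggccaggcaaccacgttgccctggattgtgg
Pde4d window 4: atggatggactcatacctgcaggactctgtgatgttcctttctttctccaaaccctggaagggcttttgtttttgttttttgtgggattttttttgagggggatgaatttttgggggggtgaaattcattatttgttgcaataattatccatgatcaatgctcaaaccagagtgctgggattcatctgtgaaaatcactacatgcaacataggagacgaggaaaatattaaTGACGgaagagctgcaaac

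The cores began 231 and 194 bases before the start in window 3 and 19 bases before it in window 4. Neither window held TGACGTCA. The 2 windows of Pde4b held neither the full CRE nor its core. Windows were found for 7 of the 8 genes, 18 in all, and those of Crem alone held a full CRE.

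All 3 Pde4d probe sets fell after APAP in both sub-groups. The probe set 1392968_at gave 12.09, 12.86, 12.22, 12.67 and 12.36 in SA, against 13.78, 13.59, 13.73, 14.22 and 13.74 in S, and the arrays did not overlap. In resistant rats it gave 12.49, 12.67, 12.85, 12.02 and 12.61 in RA, against 13.64, 14.00, 13.96, 14.11 and 14.29 in R, again with no overlap. The log2 change was -1.37 ± 0.18 in susceptible rats (SE, 2.58 times lower, limma adjusted p 1.88e-04) and -1.47 ± 0.18 in resistant rats (2.77 times lower, limma adjusted p 1.41e-04).

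The probe set 1368750_a_at gave 10.35, 10.33, 10.22, 10.50 and 9.93 in SA, against 11.36, 11.70, 12.08, 11.69 and 11.86 in S. It gave 10.02, 9.56, 10.55, 10.87 and 10.41 in RA, against 11.84, 11.68, 12.04, 11.65 and 11.51 in R. Its changes were -1.47 in susceptible and -1.46 in resistant rats. The probe set 1370569_at gave 11.09, 11.15, 10.98, 10.91 and 10.37 in SA, against 12.09, 12.06, 12.55, 12.26 and 11.77 in S. It gave 10.56, 10.73, 10.97, 11.12 and 10.88 in RA, against 11.97, 12.17, 12.31, 12.31 and 12.12 in R. Its changes were -1.24 and -1.32. For the 3 probe sets limma's adjusted p was 1.83e-04 to 3.02e-04 in susceptible rats and 1.41e-04 to 3.84e-04 in resistant rats. No array of a postdose group reached the lowest predose array of its sub-group on any of them.

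The Pde4d change was close in the 2 sub-groups. The change in susceptible minus that in resistant rats was -0.01 to 0.10 on the log2 scale, with 95% intervals that together ran from -0.61 to 0.63. Neither the postdose nor the predose sub-groups differed by the test, with adjusted p of 0.927 or more after dosing and 0.9998 before it.

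Pde4b, at chr5:122028956-122598267, encodes another phosphodiesterase of the PDE4 family. Both of its probe sets fell in both sub-groups. The probe set 1374157_at gave 14.91, 14.71, 14.87, 14.95 and 14.63 in SA, against 15.23, 15.67, 15.41, 15.45 and 15.26 in S. It gave 14.38, 14.24, 14.77, 14.51 and 14.71 in RA, against 15.54, 15.48, 15.39, 15.45 and 15.33 in R. All postdose arrays were below all predose arrays. The log2 change was -0.59 ± 0.11 in susceptible rats (SE, 1.51 times lower, limma adjusted p 0.00393) and -0.91 ± 0.11 in resistant rats (1.88 times lower, limma adjusted p 1.65e-04).

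The probe set 1369044_a_at gave 13.10, 12.93, 12.83, 12.99 and 12.67 in SA, against 13.47, 13.90, 13.42, 13.36 and 13.31 in S. It gave 12.56, 12.44, 12.75, 12.10 and 12.61 in RA, against 13.57, 13.75, 13.80, 13.62 and 13.75 in R. S replicate 2 stood above the other S arrays, and no postdose array reached a predose one. The changes were -0.59 ± 0.13 in susceptible rats (SE, limma adjusted p 0.0106) and -1.21 ± 0.13 in resistant rats (limma adjusted p 5.66e-05). With the 10 susceptible arrays fitted alone, the adjusted p in susceptible rats was 0.0632, which ended that call, and over all alternatives it was 0.00196 to 0.0632.

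The Pde4b change was smaller in susceptible than in resistant rats by 0.62 on 1369044_a_at (95% interval 0.22 to 1.01) and by 0.32 on 1374157_at (-0.02 to 0.66). Neither was called over all probe sets (limma adjusted p 0.463 and 0.748). After dosing, SA was higher than RA by 0.41 and 0.29 on these probe sets, with unadjusted p under 0.05 on both and adjusted p of 0.277 and 0.426. Leaving out any 1 array did not bring any Pde4b difference between sub-groups past the threshold.

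**Figure D2:**
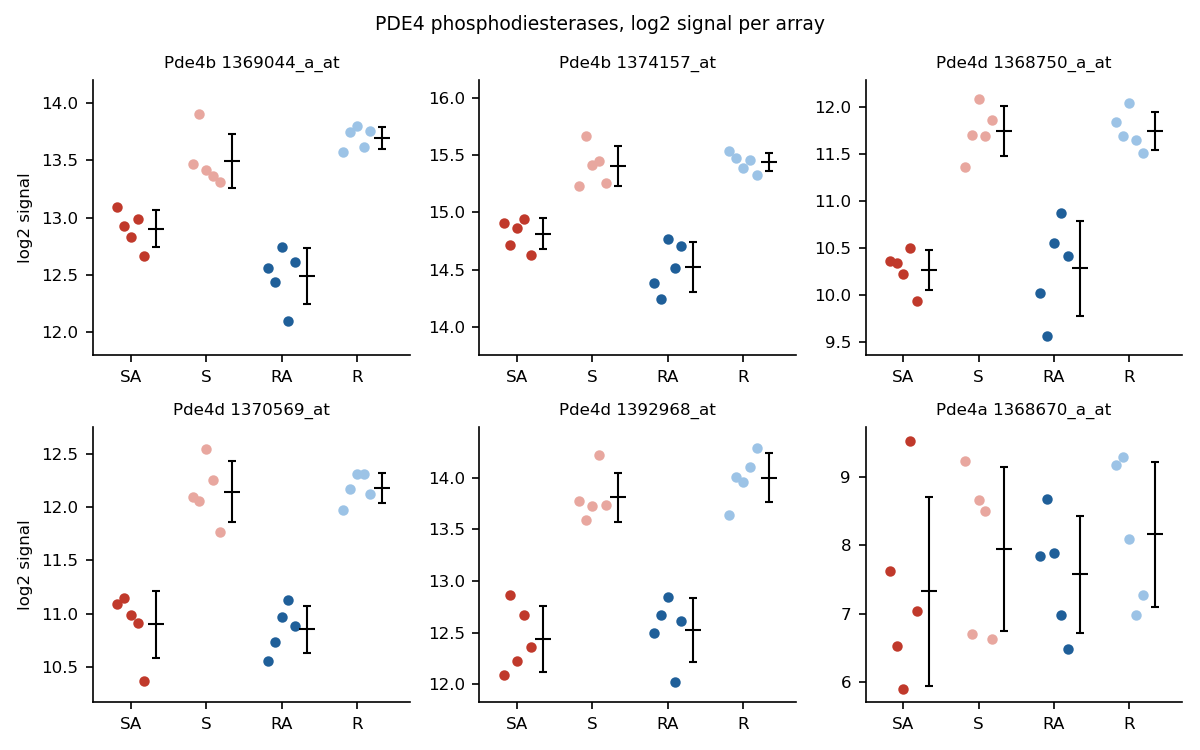
Log2 signal of the probe sets of Pde4a, Pde4b and Pde4d on each of the 20 arrays, by group (SA, S, RA, R), with a point per array and the group mean ± SD in black (n = 5). The postdose arrays of all 5 Pde4b and Pde4d probe sets lie below the predose arrays of both sub-groups, whereas the 4 groups overlap for Pde4a.

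Pde4a, another member of the family, had 1 probe set of low signal, 1368670_a_at. It gave 7.63, 6.52, 5.90, 9.52 and 7.04 in SA, against 9.23, 6.69, 8.65, 8.50 and 6.63 in S. It gave 7.83, 8.67, 7.89, 6.98 and 6.49 in RA, against 9.17, 9.28, 8.09, 6.97 and 7.27 in R. The groups overlapped widely, and 13 of the 20 arrays were at or below 8.12, the highest value of the bacterial trp control probe sets, to which no rat RNA should bind. Its log2 changes of -0.62 ± 0.69 and -0.59 ± 0.69 (SE) were not called (limma adjusted p 0.703 and 0.753).

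Of the 15 probe sets of the members other than Crem, 5 were called lower and 0 higher in susceptible rats, and likewise 5 and 0 in resistant rats and in the change averaged over both. They were the same 5 each time, all of Pde4b and Pde4d. Over all probe sets tested, 2.8% were called lower and 3.86% higher in susceptible rats (6.66% in all), 2.6% lower and 2.51% higher in resistant rats (5.11%), and 6% lower and 6.28% higher in the averaged change (12.3%). Of these 15, 5 also had arrays that did not overlap, all lower, in each sub-group and over both together. Over all probe sets tested, arrays that did not overlap and were lower made up 2.91% in susceptible rats, 3.53% in resistant rats and 0.865% over both. No member, Crem included, was called in the difference in change (0 of 21, 4 with an unadjusted p under 0.05), after dosing between sub-groups (0 of 21, 2 unadjusted) or before dosing (0 of 21, 1 unadjusted) by limma. Over all probe sets those calls were 0%, 0.143% and 0.00329%.

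The PKA subunits among the members did not pass the test. Prkar1a, at chr10:95120537-95139028, encodes the regulatory subunit RI-alpha, which holds the catalytic subunits inactive until cAMP binds. On 1373951_at the signal was 15.58, 15.53, 15.75, 15.54 and 15.66 in SA, against 15.71, 15.92, 15.84, 15.79 and 15.84 in S. It was 15.63, 15.91, 15.82, 15.53 and 15.59 in RA, against 15.77, 15.98, 15.96, 15.83 and 15.73 in R. The groups overlapped, with log2 changes of -0.21 ± 0.092 and -0.16 ± 0.092 (SE, limma adjusted p 0.226 and 0.422). Averaged over both sub-groups the change was -0.18 (limma adjusted p 0.0810). This averaged change was called without RA replicate 2 (-0.21, adjusted p 0.0450), after quantile normalization (-0.25, 0.0182) and with a trended, robust prior (adjusted p 0.0493), and over all alternatives its adjusted p was 0.0182 to 0.141. Quantile normalization also called its change in susceptible rats (-0.35, adjusted p 0.0287, over all alternatives 0.0287 to 0.369) and the averaged change of 1388375_at (-0.22, adjusted p 0.0168, over all alternatives 0.0168 to 0.423).

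The other 2 Prkar1a probe sets were not called. 1388375_at averaged 15.68 ± 0.18 in SA and 15.79 ± 0.16 in S, and 15.66 ± 0.22 in RA and 15.86 ± 0.11 in R (SD, n = 5 each). 1386905_at averaged 13.97 ± 0.25 in SA and 13.81 ± 0.23 in S, and 13.75 ± 0.11 in RA and 13.97 ± 0.12 in R, so that its changes ran in opposite directions in the sub-groups, with a difference in change of 0.38 (95% interval -0.0028 to 0.75, adjusted p 0.729). Prkaca, the catalytic subunit, averaged 12.03 ± 0.26 in SA and 12.08 ± 0.20 in S, and 11.90 ± 0.21 in RA and 11.80 ± 0.33 in R on 1371578_at. Its changes of -0.05 and 0.10 were within the spread of the arrays (limma adjusted p 0.915 and 0.844).

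The activators that share the CRE with CREM did not pass the test either. Creb1, at chr9:73397333-73466339, encodes CREB. On 1375655_at the signal was 13.70, 13.80, 13.52, 13.68 and 13.73 in SA, against 13.48, 13.60, 13.38, 13.40 and 13.64 in S. It was 13.59, 13.82, 13.63, 13.14 and 13.62 in RA, against 13.50, 13.53, 13.14, 13.31 and 13.76 in R. The arrays overlapped, and the changes were 0.18 ± 0.13 and 0.11 ± 0.13 (SE, limma adjusted p 0.495 and 0.740). 1369708_a_at averaged 11.44 ± 0.14 in SA and 11.23 ± 0.25 in S, and 11.22 ± 0.21 in RA and 11.34 ± 0.19 in R (SD, n = 5 each). The other 2 Creb1 probe sets, 1371291_at and 1377913_at, were at or below the highest trp value on 19 and 8 of the 20 arrays, with single-array values of 4.41 to 9.15, and their changes of -0.71 to 0.13 had standard errors of 0.58 and 0.81. Atf1, a close relative of CREB at chr7:133240774-133283488, averaged 14.67 ± 0.16 in SA and 14.67 ± 0.12 in S, and 14.72 ± 0.16 in RA and 14.61 ± 0.086 in R on 1389623_at. Its changes of 0.00 (95% interval -0.21 to 0.22) and 0.11 (-0.10 to 0.33) were within the spread of the arrays.

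**Figure D3:**
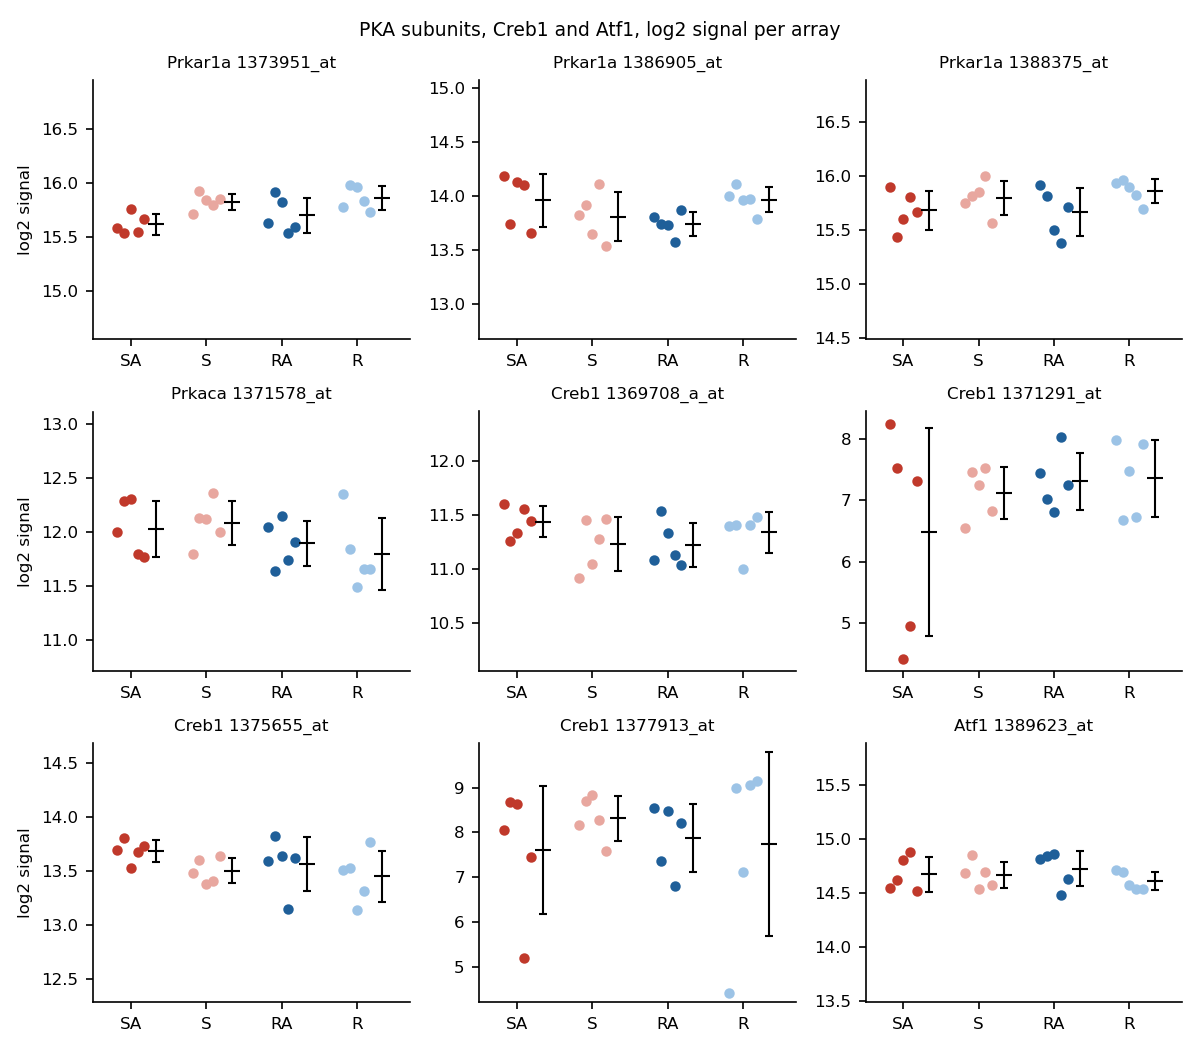
Log2 signal of the probe sets of Prkar1a, Prkaca, Creb1 and Atf1 on each of the 20 arrays, by group (SA, S, RA, R), with a point per array and the group mean ± SD in black (n = 5). Postdose and predose arrays overlap on all 9 probe sets, and the points of Creb1 1371291_at and 1377913_at spread most.

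**Figure D4:**
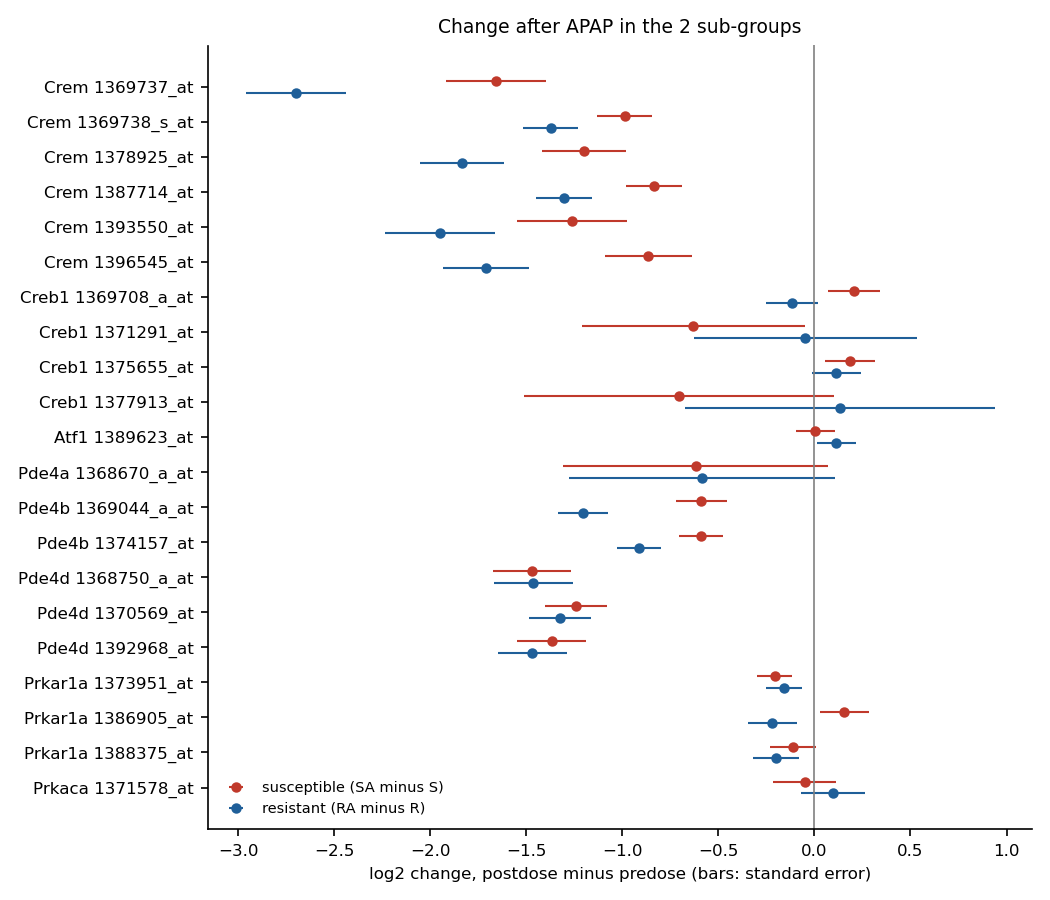
Log2 change, postdose minus predose, of all 21 member probe sets in susceptible (red) and resistant (blue) rats, with bars for the standard error from limma. The 11 probe sets of Crem, Pde4b and Pde4d lie left of 0 in both sub-groups with bars clear of it. Prkar1a 1373951_at does so too, nearer to 0, and none of the other 10 was called.

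The signal of blood cell markers also moved between predose and postdose arrays, and its part in the changes of Crem, Pde4b and Pde4d was not tested. Natural killer markers rose on all 6 of their genes in both sub-groups, and their summed scaled signal was 271995 to 430460 in SA, against 152589 to 202081 in S, and 304304 to 445007 in RA, against 152499 to 243775 in R. Neutrophil markers rose on 4 of 7 genes in susceptible rats, where 1 fell, and on 3 of 7 in resistant rats, with sums of 850299 to 1223220 in SA, against 536976 to 689748 in S, and 833783 to 1027920 in RA, against 509687 to 742327 in R. Susceptible rats had 2 of 4 B cell genes called lower and resistant rats 0 of 4, and all 4 were called lower in the averaged change (median log2 change -0.38), with sums of 73018 to 94757 in SA, against 90671 to 120370 in S, and 79072 to 99015 in RA, against 96890 to 142728 in R. B cell, T cell and monocyte sums overlapped between postdose and predose arrays in each sub-group. In each sub-group 1 of 8 T cell genes fell, and of 6 monocyte genes 1 rose and 1 fell in susceptible rats and 0 were called in resistant rats. The averaged change called all 6 natural killer genes higher, 4 neutrophil genes higher and 1 lower. It called 1 T cell gene higher and 2 lower, and 1 monocyte gene higher and 1 lower. Over all probe sets it called 6.28% higher and 6% lower. No platelet gene of 4 and no reticulocyte gene of 3 was called, and of 5 liver genes Alb rose in susceptible rats.

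Beyond the 8 members, 77 genes of the pathway were listed in 7 groups, of which 70 were on the array and 69 tested. Each gene was taken at 1 probe set, that of the highest mean signal. The shares over all probe sets, here and for the genes induced through CREB, involved no such choice and are not like for like. In susceptible rats 6 rose and 9 fell (6.66% of all probe sets were called, 3.86% higher and 2.8% lower), in resistant rats 1 rose and 9 fell (5.11%, 2.51% higher and 2.6% lower), and in the averaged change 8 rose and 13 fell (12.3%, 6.28% higher and 6% lower). The median log2 change of the 69 genes was -0.02 in susceptible and -0.07 in resistant rats, against 0.01 and -0.01 over all probe sets tested. None of the 69 was called in the difference in change or between sub-groups after dosing.

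Among 8 receptors and G proteins, the adenosine receptor Adora2a, which couples to Gs, fell in susceptible rats (-0.70, limma adjusted p 0.0333) and was -0.40 in resistant rats (0.290). Its relative Adora2b rose in resistant rats (0.91, 0.0293) and was 0.33 in susceptible rats (0.494). Gnai2, the inhibitory alpha subunit of leukocytes, was called in the averaged change alone (0.25, 0.0417), and Gnas, which encodes the Gs alpha subunit, was not called (0.12 and -0.03). Of 8 adenylyl cyclases 1 was called. Adcy4 rose in susceptible rats, by 1.98 on the log2 scale (mean 12.30 in SA and 10.31 in S, limma adjusted p 0.00217), and was 11.39 in RA and 10.42 in R (adjusted p 0.135, and 0.0361 with the resistant arrays fitted alone). Adcy3 and Adcy6 changed by -0.09 to 0.03 and were not called.

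Of 9 other PKA subunits, inhibitors and Epac proteins, Prkar2b, a regulatory subunit, rose in susceptible rats (0.54, limma adjusted p 0.0381), and Pkib, an inhibitor of the catalytic subunit, fell in resistant rats (-0.96, 0.0267). Prkacb and Prkar2a were not called. Of 9 other phosphodiesterases tested, Pde3a rose (0.79, 0.0166) and Pde3b fell (-0.51, 0.0330) in susceptible rats, whereas Pde2a and Pde7a were not called. None of the 9 was called in resistant rats. In the PKA anchoring proteins 1 of 9 was called. Akap12, a scaffold that holds PKA near the cell membrane, fell to 9.13 ± 0.35 in SA, against 10.89 ± 0.10 in S, and to 9.52 ± 0.23 in RA, against 10.94 ± 0.12 in R. Its log2 changes of -1.77 and -1.42 were both called, and Akap8, Akap10 and Akap13 were not.

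Sik1 and Sik2 encode kinases that keep the CREB coactivators of the CRTC family out of the nucleus. Sik1 fell to 13.54 ± 0.36 in SA, against 14.64 ± 0.31 in S, and to 13.51 ± 0.21 in RA, against 14.61 ± 0.23 in R (limma adjusted p 0.00129 and 0.00149). Sik2 fell in susceptible rats (-0.69, 0.00531) and was -0.27 in resistant rats (0.349). Sik3 and Ep300 were called higher in the averaged change alone (0.25 and 0.32), and Crebbp was not called.

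Genes known as induced through CREB moved in both directions. Of 19 tested, 3 rose and 5 fell in susceptible rats (3.86% and 2.8% of all probe sets), 0 rose and 7 fell in resistant rats (2.51% and 2.6%), and 2 rose and 8 fell in the averaged change (6.28% and 6%). The orphan nuclear receptor Nr4a1 fell to 13.45 ± 0.66 in SA, against 14.93 ± 0.38 in S, and to 13.29 ± 0.40 in RA, against 15.16 ± 0.25 in R (limma adjusted p 0.00300 and 6.29e-04). Its relative Nr4a2 fell to 10.06 ± 0.33 in SA, against 11.32 ± 0.36 in S, and to 9.45 ± 0.60 in RA, against 11.85 ± 0.62 in R (limma adjusted p 0.0169 and 1.73e-04). Per1, a clock gene, fell by 1.17 and 1.14, and Cd55, which protects cells from complement, by 0.99 and 0.92 on the log2 scale in susceptible and resistant rats. With Sik1 above, these 5 genes fell in both sub-groups.

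Other genes of the list were called in 1 sub-group in the fit to all arrays. Fosb, an AP-1 subunit, fell in resistant rats to 9.43 ± 0.73 in RA, against 11.96 ± 0.90 in R (adjusted p 0.00517), and was 10.53 ± 1.04 in SA and 11.17 ± 0.52 in S (adjusted p 0.553, limma). Il10, a cytokine that dampens inflammation, was lower among resistant rats, at 6.06 ± 1.63 in RA, below the highest trp control value, against 10.05 ± 0.25 in R. Its log2 changes were -3.99 in resistant rats (limma adjusted p 8.23e-04) and -1.84 in susceptible rats (0.0909). With values under 100 set to 100 the change was -2.94 in resistant rats and -1.84 in susceptible rats, and both were called (limma adjusted p 3.24e-04 and 0.00989). Fos and Dusp1, rapid genes of many stimuli, rose in susceptible rats (0.78 and 0.71), with 0.44 and 0.62 in resistant rats. Ptgs2, which makes prostaglandins, rose to 13.72 ± 0.50 in SA, against 12.23 ± 0.72 in S (limma adjusted p 0.0245), and was 12.15 ± 0.52 in RA and 12.80 ± 0.73 in R (0.431). The difference in change was not called for any of these (adjusted p 0.330 for Ptgs2, 0.570 for Fosb and 0.635 for Il10). Nr4a3 was called in the averaged change alone (-0.73), and Rgs2 was not called. Of the 17 listed genes with a RefSeq window, 4 (23.5%) held a full CRE, against 2.0% of 27457 genes, and of these 4 Dusp1 was the one that was called, higher in susceptible rats. The list was chosen for a known link to CREB, so that this share is a description.

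Several of these calls lay close to the threshold and were lost when 1 array or another was left out, while the changes stayed of similar size, such as 0.61 to 0.75 for Dusp1 where its call was lost and 0.22 to 0.26 for the averaged change of Gnai2. In susceptible rats the call of Dusp1 was kept without S replicate 1 and lost without any other of the 10 arrays (adjusted p up to 0.119), that of Pde3b was kept without SA replicate 2 or 4 or S replicate 5 and lost without any other (up to 0.0976), and that of Adora2a was kept without replicate 3 or 4 of either group and lost without any other (up to 0.0857). Prkar2b lost its call in susceptible rats without SA replicate 1, 3 or 5 or S replicate 2 or 5 (up to 0.108), and Ptgs2 without SA replicate 1, 3 or 5 or S replicate 1 or 3 (up to 0.0734). In resistant rats Adora2b lost its call without RA replicate 1, 4 or 5 or R replicate 2, 3 or 5 (up to 0.0828), and Pkib without RA replicate 1 or 4 or R replicate 2, 3 or 4 (up to 0.0766). Of the averaged calls, those of Gnai2, Nr4a3, Prkar2b and Ep300 were lost without any 1 of 16, 12, 12 and 7 of the 20 arrays. Ep300 lost its call without SA replicate 3, S replicate 3 or 5, RA replicate 2, 3 or 5 or R replicate 3. Gnai2 kept its call without SA replicate 2, S replicate 1, RA replicate 4 or R replicate 2. Nr4a3 kept it without SA replicate 3, 4 or 5, S replicate 1 or 5, RA replicate 5 or R replicate 1 or 2, and Prkar2b without SA replicate 2 or 4, S replicate 1, 3 or 4, RA replicate 3 or 4 or R replicate 5.

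Calls were also gained. Without S replicate 2 the averaged changes of Akap13 (0.21, adjusted p 0.0443) and Pde3a (0.40, 0.0496) were called, without SA replicate 2 the change of Ep300 in susceptible rats (0.48, 0.0469), and without R replicate 5 that of Adora2a in resistant rats (-0.59, 0.0350). When the susceptible arrays were fitted alone, 8 of the pathway genes were called in place of 15, and the calls lost were those of Per1 (limma adjusted p 0.0662), Fos (0.0624), Pde3a (0.0638), Ptgs2 (0.0656), Adora2a (0.0591), Prkar2b (0.154) and Pde3b (0.147). With the resistant arrays fitted alone, Adora2b (0.0717) and Pkib (0.0758) lost theirs. Quantile normalization ended the calls of Prkar2b (0.109) and Dusp1 (0.0603) in susceptible rats and of Prkar2b in the averaged change (0.0833), and called Sik3 in resistant rats (0.32, 0.0364). A trended, robust prior ended the call of Pde3a in susceptible rats (0.0696) and called Gnai2 (0.0359) and Ep300 (0.0282) there and Dusp1 in resistant rats (0.0404). Ep300 was also called in susceptible rats with 1 probe set per gene (0.0479).

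**Figure D5:**
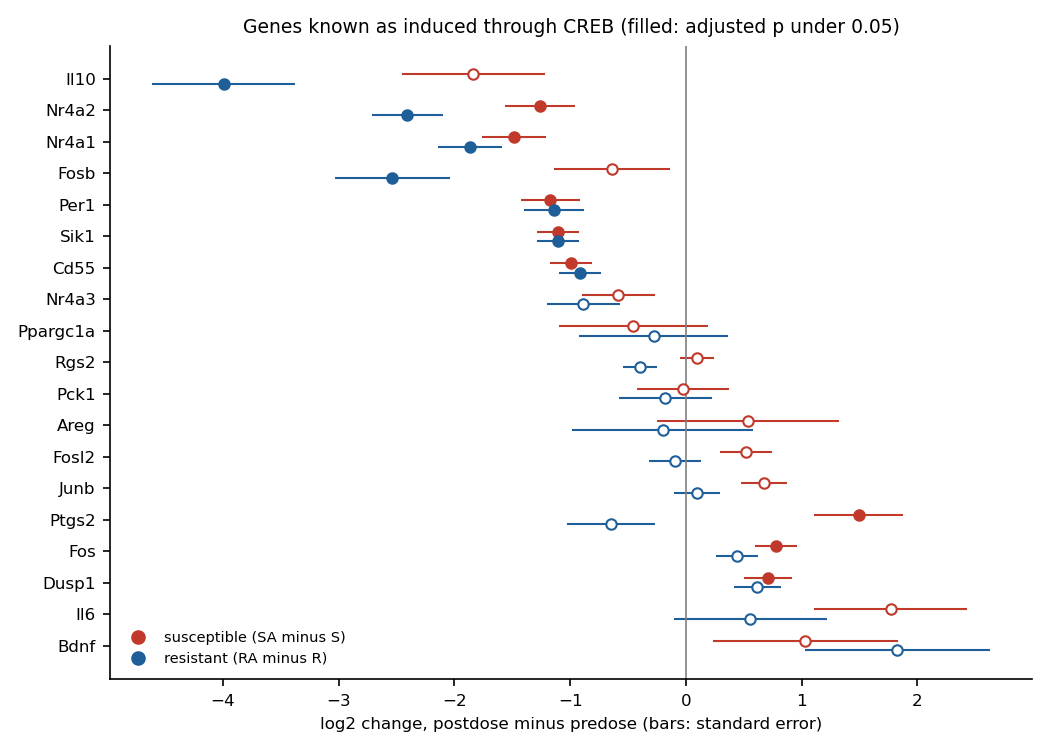
Log2 change, postdose minus predose, of the 19 tested genes known as induced through CREB in susceptible (red) and resistant (blue) rats, with bars for the standard error and filled points for an adjusted p under 0.05. Nr4a2, Nr4a1, Per1, Sik1 and Cd55 are filled and left of 0 in both sub-groups, while Ptgs2, Fos and Dusp1 are filled and right of 0 in susceptible rats.

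The genes whose profile over the 20 arrays lay closest to that of Crem 1378925_at were taken from 20652 probe sets of other genes, by the root mean square difference of log2 signals after each profile was centred on its own mean. The closest 6 were Errfi1 (0.29), a feedback inhibitor of the EGF receptor, Rasgef1b (0.29), an exchange factor for small GTPases, Pde4d 1392968_at (0.33), Stard4 (0.34), a carrier of cholesterol, Nr4a2 (0.35) and Trib2 (0.36), a pseudokinase. The median over the candidates was 0.95, and the other 5 Crem probe sets were at 0.19 to 0.40. Pde4b ranked 29 and 80 with its 2 probe sets, and the other Pde4d probe sets ranked 10 and 39. The probe sets of Prkar1a ranked 1899 to 3515, and those of Creb1, Atf1, Prkaca and Pde4a 6180 to 15911. Errfi1 changed by -1.32 in susceptible and -1.67 in resistant rats, Rasgef1b by -1.26 and -1.73, Stard4 by -1.33 and -1.53 and Trib2 by -1.10 and -1.39. Because Crem was chosen for its postdose change, likeness to it over these arrays is a description.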

How the data were processed

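Blood RNA was measured on 20 arrays, 1 per sample. The authors deposited linear intensity values, 1 per probe set and array, with array medians of 187 to 223; per the methods they handled the data in ArrayTrack and set each chip to a median of 1000, and the software behind the deposited intensities is not given in the sources used here. Without the 57 control probe sets, signals were rescaled here so that every array had a median of 1000, and log2 was taken. A probe set had to reach 100 on at least 1 array of a fit to be tested (30747 tested on 20 arrays, 30416 on the 10 predose arrays). Symbols came from the platform annotation and positions and promoter windows from RefSeq on GRCr8, with motifs sought on both strands.

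Tests used lmFit and eBayes of limma 3.58.1 under R 4.3.3, with 1 mean per group over all 20 arrays, and over the 10 predose arrays alone for the predose comparison, with Benjamini-Hochberg adjustment over all probe sets tested and a threshold of 0.05. The fit was tested on simulated data, and precision is limited by the number of arrays. The members and the gene and marker lists were chosen with earlier results of these data known. Named genes were all members, the listed genes past the threshold in a postdose change and the 3 of highest signal in each list, and the 6 probe sets closest to Crem.

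Alternatives were values as deposited, quantile normalization, no filter, a stricter filter at 300, a floor at 100, 1 probe set per gene, a replicate block, a trended and robust prior, only the arrays compared (all 20 for the predose comparison), the methods' test at a fold of 2 with p under 0.05, and leaving out each array. Ranges of adjusted p over all alternatives leave out the methods' test, for which counts of calls are given. Plots were made in Python 3.11.15 with matplotlib 3.10.9. Real-time PCR and serum measurements were not used here.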

Additional observations from a re-analysis of the deposited data

Results flagged for a closer look

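In 84 sets of 5 arrays, 1 for each member probe set and group, 2 held an array far from the other 4, where chance flags about 1 in 20. For Pde4b 1369044_a_at, S replicate 2 was at 13.90 on the log2 scale, above the other S arrays at 13.31 to 13.47. It lay on the far side from the SA arrays, and the change in susceptible rats was called whichever susceptible array was left out (limma adjusted p 0.0129 to 0.0330). For Creb1 1369708_a_at, R replicate 3 was at 11.01, below the other R arrays at 11.40 to 11.49, and that probe set was not called in any comparison.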

How the results depend on the processing

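Of the 15 probe sets of members other than Crem, 5 were called in each postdose change. With 1 probe set per gene the count was 2 in susceptible rats, 2 in resistant rats and 2 in the averaged change, by construction, since Pde4b and Pde4d then have 1 probe set each. The methods' test with its 2-fold criterion called 3 in susceptible rats before and 3 after adjustment, and 3 in resistant rats after adjustment. Leaving out each array in turn gave 5 in each sub-group and 5 to 6 in the averaged change, and 0 in the 3 comparisons between sub-groups. The other alternatives kept these counts within 1.5 times.

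The replicate numbers were not shown to pair the arrays. Which predose and postdose arrays shared a rat was not known for any pair, so the correlations below cannot exclude a pairing by number. Over 10 same-numbered predose and postdose pairs the correlation of deviations from the group means was -0.03 to 0.05, 0 were over 0.1, and 3 pairs were the best match of their own number. A fit with the replicate block called the same counts of members, 5, 5 and 5 in the postdose changes and 0 in the others, but over all probe sets 1290 in susceptible and 970 in resistant rats, against 2048 and 1570 without it, and 9 in place of 15 of the wider pathway genes in susceptible rats. The calls it ended were those of Adora2a, Prkar2b, Pde3a, Pde3b, Fos and Dusp1 in susceptible rats (limma adjusted p 0.0533 to 0.104) and of Gnai2 (0.0851) and Ep300 (0.110) in the averaged change. The fit to the susceptible arrays alone gave 8 of those.

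The members gave 2693 combinations of probe set, comparison and alternative, without the methods' test, whose counts are given above. Of these, 1 lost a call, 5 gained one, 0 called values reversed and 2687 showed none of these. The 2687 include the Crem postdose changes, which were not tested and so had no call to lose. Among all 2693, 92 values that were not called changed sign. Each Crem postdose change stayed negative throughout. For 35 named pathway genes, again without the methods' test, 111 of 2310 lost a call and 11 gained one. Pde4a and Creb1 1371291_at and 1377913_at were at or below the highest trp control value on 13, 19 and 8 of the 20 arrays, which limits what their values can show.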
